A study of Sus scrofa with 20 samples.

Results

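The ileal mucosa of piglets killed 14 days after weaning was compared with that of piglets killed on the day of weaning. The comparison used 7 of the 20 arrays of the series, and its groups were taken from the deposited sample descriptions. The 4 S21D arrays came from piglets that had only suckled until they were killed at 21 days of age. The 3 21W35D arrays came from piglets weaned at 21 days and killed at 35 days of age, which had received a commercial weaning diet. All were Landrace × Large white × Duroc crossbred piglets, and each array held RNA of 1 animal. The groups therefore differed by 14 days of age, by weaning and by diet, and these cannot be told apart in this comparison. The 4 S28D arrays, from suckling piglets of 28 days, are given beside single genes as the oldest suckling group whose labels are not in doubt. The labels of the arrays marked S35D and 21W28D are in doubt, and their values appear only where this is said.

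The ileum carries an absorptive epithelium, a lamina propria rich in T cells and plasma cells, and, in pigs, a continuous Peyer's patch whose follicles are filled with dividing B cells. Type I and type II interferons act through STAT factors to raise a shared set of antiviral genes and the MHC class I pathway, which shows peptides to CD8 T cells. Weaning replaces milk, with its maternal antibodies, by solid feed with new antigens.

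The values were log2 units between a floor of 2.08 and 16.41, and array medians were 5.14 to 5.27 in these 7 arrays. The tissue carried its markers: EPCAM, an epithelial adhesion molecule, measured 14.66 to 15.18 in all 7, and FABP6, the ileal bile acid-binding protein, 15.00 to 16.01. Each array correlated with the average of its group's other arrays at 0.9953 to 0.9973 in S21D piglets and at 0.9896, 0.9704 and 0.9918 in replicates 1 to 3 of 21W35D piglets. The median SD of 12267 probe sets with a mean over 5 was 0.195 in S21D and 0.327 in 21W35D piglets. The difference between the 3′ and 5′ actin control probe sets, a sign of RNA quality or of labelling, was 4.64 to 5.10 in S21D and 5.27 to 5.85 in 21W35D piglets. These 2 ranges did not overlap, and their part in the results was not tested.

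Between S21D and 21W35D piglets, 50 probe sets rose and 4 fell at least 2-fold at an adjusted p under 0.05 (limma, all 20 arrays in the fit), which is 0.208% and 0.0167% of the 23999 tested, or 0.225% together. Without the 2-fold minimum there were 63 rises and 8 falls (0.263% and 0.0333%, or 0.296% together), and the 2 groups did not overlap in any of these 71 probe sets. Of the 63 rises, 33 probe sets carried a single gene symbol and represented 31 genes. They included members of the lists for detoxification, interferon, MHC class I, T and cytotoxic lymphocytes and early response, described below by list. An unadjusted p under 0.05 was reached by 2698 probe sets (11.2%), and the median difference of all was 0.00. In bulk mucosa, fewer cells of a type and less RNA per cell cannot be told apart. With the replicate number as a block, 21 probe sets passed (19 rises and 2 falls), and of the 37 probe sets with a single symbol among the 71, 8 had an adjusted p under 0.05: both of GSTA1, CD3G, PRKCH, KLRK1, GIMAP5, SLA-8 and FABP7. Leaving out 1 array left between 14 and 57 calls, with 14 to 30 of the 37 named probe sets lost. The 6 named probe sets that passed in all 7 such fits were both of GSTA1, CD3G, PRKCH, KLRK1 and FABP7, and every other named rise or fall below was lost in at least 1. Of these 6, only the brightest GSTA1 probe set also passed with only the 2 groups in the fit (adjusted p = 0.0408). In that fit the adjusted p was 0.101 for the second GSTA1 probe set, 0.0934 for CD3G and 0.069 for PRKCH. It was 0.0608 for KLRK1 and 0.0623 for FABP7.

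**Figure D1:**
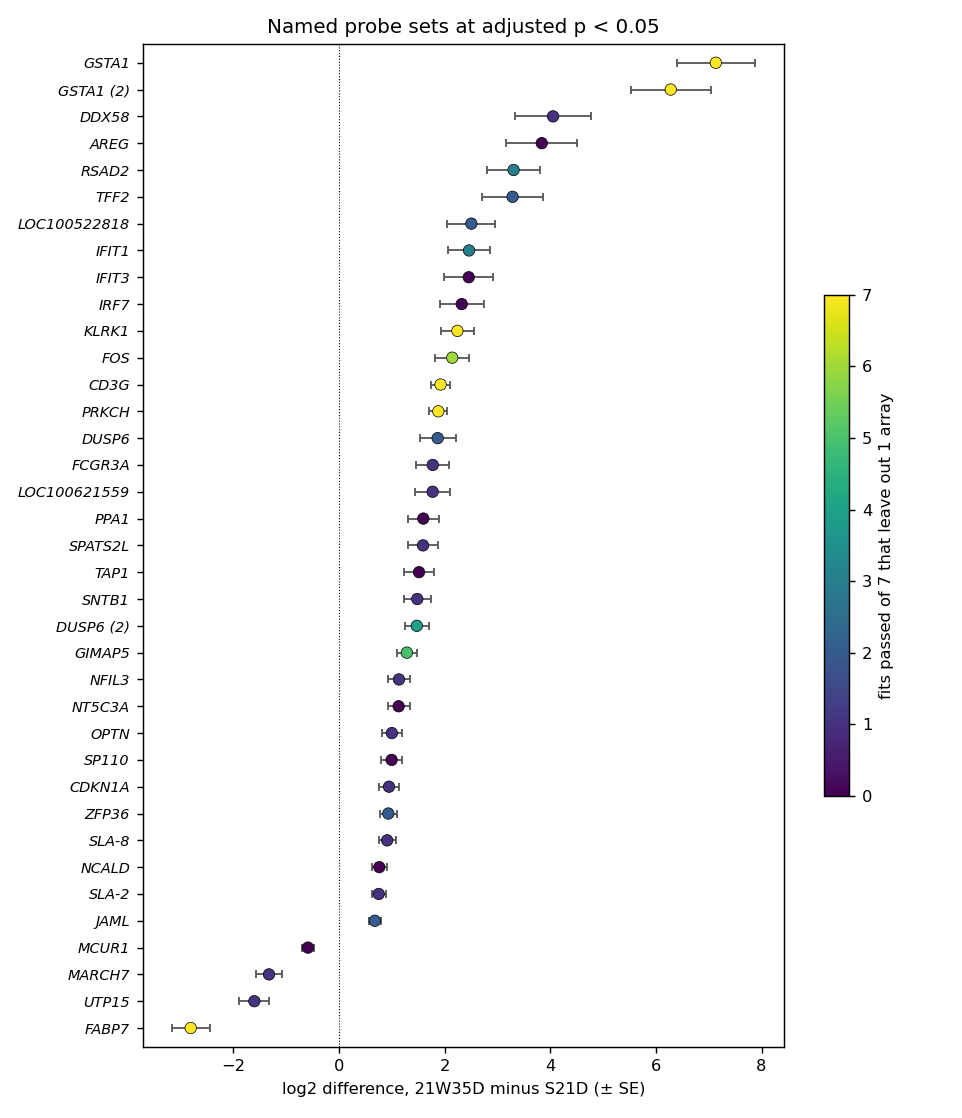
Differences of the 37 named probe sets at an adjusted p under 0.05, in log2 units with the standard error as bars. The colour of a point gives in how many of the 7 fits without 1 array it still passed: GSTA1, KLRK1, CD3G, PRKCH and FABP7 passed in all 7, and 9 probe sets in none.

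GSTA1, an alpha class glutathione transferase that conjugates electrophiles to glutathione, showed the largest change of a named gene. Its brightest probe set measured 4.11, 5.18, 5.83 and 4.58 in S21D piglets and 11.92, 12.53 and 11.74 in 21W35D piglets. The lowest 21W35D array was 5.91 units above the highest S21D array. This was a rise of 7.14 (SE 0.74, adjusted p = 0.000553), or 141-fold. A second probe set rose by 6.28 (adjusted p = 0.00228), and the other one, near the floor, gave -0.27 (adjusted p = 0.624). The first 2 can also bind related transferases, since the alpha class genes are close in sequence. The S21D piglets had the lowest mean of the 6 groups for this gene. It was 9.10 ± 0.46 (SD, n = 3) in S14D, 4.93 ± 0.74 (n = 4) in S21D and 11.50 ± 1.54 (n = 4) in S28D piglets, against 12.06 ± 0.42 (n = 3) in 21W35D piglets. S28D piglets, which were still suckling, were 6.58 above S21D piglets (adjusted p = 0.00292), and 21W35D piglets were 0.56 above S28D piglets (SE 0.74, adjusted p = 0.896). By the same thresholds 1 probe set, that of GSTA1, passed between S28D and S21D piglets (0.00417% of those tested), 26 between 21W35D and S28D piglets (0.108%, or 0.133% without the 2-fold minimum) and 5 between 21W35D and the arrays labelled S35D (0.0208%, or 0.0458%). These comparisons share the 21W35D or the S21D arrays with the main comparison. GSTA1 was the only one of the 33 measured detoxification genes to pass, and the median of that list was 0.14. MGST3, a membrane-bound glutathione transferase, gave 0.70 (adjusted p = 0.281) and GSTO1, an omega class transferase, 1.09 (adjusted p = 0.195), both without overlap of the groups. GSTM3, a mu class transferase, gave -1.56 (adjusted p = 0.51) and UGT2B31, a glucuronosyltransferase, -1.52 (adjusted p = 0.36), again without overlap.

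Genes of the interferon list, which is not limited to induced genes, were higher in 21W35D piglets for most members. Of 33 measured members 3 rose (IRF7, IFIT3 and RSAD2, each on its brightest probe set), none fell, and the median difference was 1.44. Without overlap of the groups, 26 were higher and none lower. Over the 6765 named genes with 1 probe set each, 0.399% rose and 0.0443% fell, while 7.7% were higher and 8.71% lower without overlap. The mean centred score of the list was -0.775 to -0.399 in the S21D arrays and 0.875, 1.204 and 1.347 in the 21W35D arrays. With dim probe sets left out of the test, 12 members passed. With the replicate block none did, nor with S35D and 21W28D left out of the fit. With only the 2 groups in the fit 1 member passed. Without 1 array 0 or 1 passed, and without replicate 2 of 21W35D it was RSAD2.

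**Figure D2:**
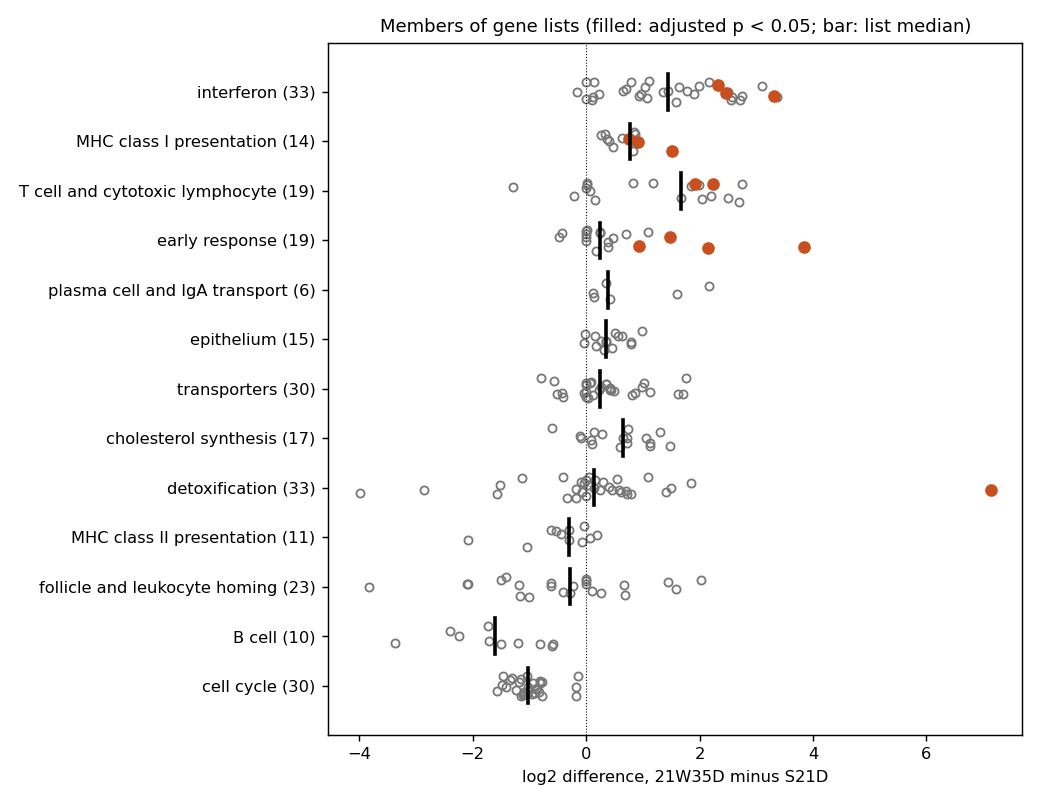
Log2 difference (21W35D minus S21D) of every measured member of 13 gene lists, with the number of members in brackets. Filled points passed at an adjusted p under 0.05 and bars mark list medians: 1.44 for interferon genes and 1.67 for T cell genes, and -1.61 for B cell and -1.03 for cell cycle genes, of which no member passed.

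Among the antiviral effectors, RSAD2 (viperin), which makes a nucleotide analogue that stops viral polymerases, measured 10.16, 10.61, 10.91 and 10.99 in S21D piglets and 13.79, 14.00 and 14.14 in 21W35D piglets. It rose by 3.31 (SE 0.51, adjusted p = 0.0157), and its 2 groups lay 2.79 apart at their closest values. IFIT3, a partner in complexes that bind viral RNA, was 9.58 to 10.49 in S21D and 12.42 to 12.73 in 21W35D piglets and rose by 2.46 (SE 0.47, adjusted p = 0.0415). For IFIT1, which binds foreign RNA caps, 1 of 3 probe sets rose, by 2.46 (adjusted p = 0.0241). Its brightest probe set gave 2.00 (adjusted p = 0.0916) and the dimmest 1.40 (adjusted p = 0.195), all without overlap. ISG15, a ubiquitin-like modifier, was 10.24, 10.97, 11.57 and 11.01 in S21D and 13.46, 13.61 and 13.92 in 21W35D piglets. Its difference of 2.72 did not pass (SE 0.57, adjusted p = 0.0716), although the groups lay 1.90 apart at their closest values. IFIT2 measured 9.55 to 9.79 in S21D piglets and 11.85, 12.69 and 12.78 in 21W35D piglets, a difference of 2.75 (SE 0.59, adjusted p = 0.073). The dynamin-like MX1 and MX2 gave 1.59 (adjusted p = 0.248) and 3.10 (adjusted p = 0.073), OAS1, an oligoadenylate synthetase, 1.78 (adjusted p = 0.144), and the guanylate-binding GBP1 and GBP2 1.64 (adjusted p = 0.243) and 3.36 (adjusted p = 0.116). None of these 5 overlapped between the groups.

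Upstream of the effectors, IRF7, the transcription factor that amplifies type I interferon production, measured 8.68, 8.95, 9.10 and 9.70 in S21D and 11.19, 11.94 and 11.18 in 21W35D piglets. It rose by 2.32 (SE 0.42, adjusted p = 0.0362). STAT2 and IRF9, transcription factors downstream of the type I interferon receptor, gave 0.65 (adjusted p = 0.218) and 0.96 (adjusted p = 0.254), and IRF1 gave 0.93 (adjusted p = 0.396). DDX58 (RIG-I), a sensor of viral RNA, had a dimmer probe set that rose by 4.05 (SE 0.71, adjusted p = 0.033) and a brighter one at 2.50 (adjusted p = 0.0916). ZBP1, a nucleic acid sensor, gave 2.56 (adjusted p = 0.0826). USP18, the protease that removes ISG15 and dampens the receptor, measured 10.26 to 10.88 in S21D and 11.54 to 12.20 in 21W35D piglets, a difference of 1.35 (SE 0.36, adjusted p = 0.169). The ligands were near the floor: IFNB1 was listed at 2.08 in all 7 arrays and IFNA1 lay between 2.98 and 3.38. IFNG, the interferon of activated T and natural killer cells, was 2.19 to 2.34 in S21D piglets and 4.36, 3.59 and 5.39 in 21W35D piglets (difference 2.17, SE 0.58, adjusted p = 0.166). For the receptors, IFNAR1 and IFNAR2 gave -0.15 (adjusted p = 0.765) and 0.10 (adjusted p = 1.0), and IFNGR1 gave 0.71 (adjusted p = 0.144). With the replicate block the adjusted p was 0.0726 for RSAD2 and IRF7, 0.0744 for IFIT1, 0.135 for IFIT3 and 0.0907 for the dimmer DDX58 probe set.

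The S28D piglets spread widely for these genes. RSAD2 was 12.29, 10.997, 13.56 and 10.93 in the 4 S28D arrays, so that replicates 2 and 4 were near the S21D values and replicate 3 near those of 21W35D. The list score showed the same width, from -0.80 to 1.02 in S28D piglets. Against S28D, 21W35D piglets were 2.03 higher for RSAD2 (adjusted p = 0.135) and 1.64 higher for IRF7 (adjusted p = 0.139), neither of which passed. The arrays labelled S35D had a score of 1.01 to 1.66 and those labelled 21W28D one of -0.90 to -0.24. With the doubt about these labels, neither range is assigned to an age or to weaning here.

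MHC class I presentation moved the same way with smaller changes. Of 14 measured members 3 rose (0.399% over all named genes), none fell, 12 were higher without overlap (7.7% over all named genes), and the median was 0.78. TAP1, which pumps peptides into the endoplasmic reticulum, measured 11.04, 11.45, 11.37 and 11.37 in S21D and 12.65, 12.63 and 13.19 in 21W35D piglets. It rose by 1.52 (SE 0.29, adjusted p = 0.0415). The class I chains SLA-8 and SLA-2 rose by 0.91 (SE 0.16, adjusted p = 0.033) and 0.75 (SE 0.13, adjusted p = 0.033), and their probe sets can bind other class I chains, which are near-identical in parts. A second SLA-8 probe set of similar brightness gave 0.83 and did not pass (adjusted p = 0.0924). SLA-2 was 13.38 to 13.53 in S21D and 14.06 to 14.38 in 21W35D piglets. The light chain B2M, at 15.03 to 15.25 and 15.39 to 15.51, gave 0.27 (adjusted p = 0.305). PSMB8 and PSMB10, subunits of the immunoproteasome that cuts peptides for these chains, gave 0.48 (adjusted p = 0.452) and 0.87 (adjusted p = 0.306). None of the 3 called members passed against S28D piglets. There the difference was 0.775 for TAP1 (adjusted p = 0.235), 0.648 for SLA-8 (adjusted p = 0.125) and 0.664 for SLA-2 (adjusted p = 0.0702). TAP1 measured 12.48, 11.15, 12.72 and 11.84 in the S28D arrays. With the replicate block 1 member passed: SLA-8 had an adjusted p of 0.0238, TAP1 0.0836 and SLA-2 0.0736. No member passed with only the 2 groups in the fit, nor with S35D and 21W28D left out of it. Without 1 array, 0 to 2 members passed.

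**Figure D3:**
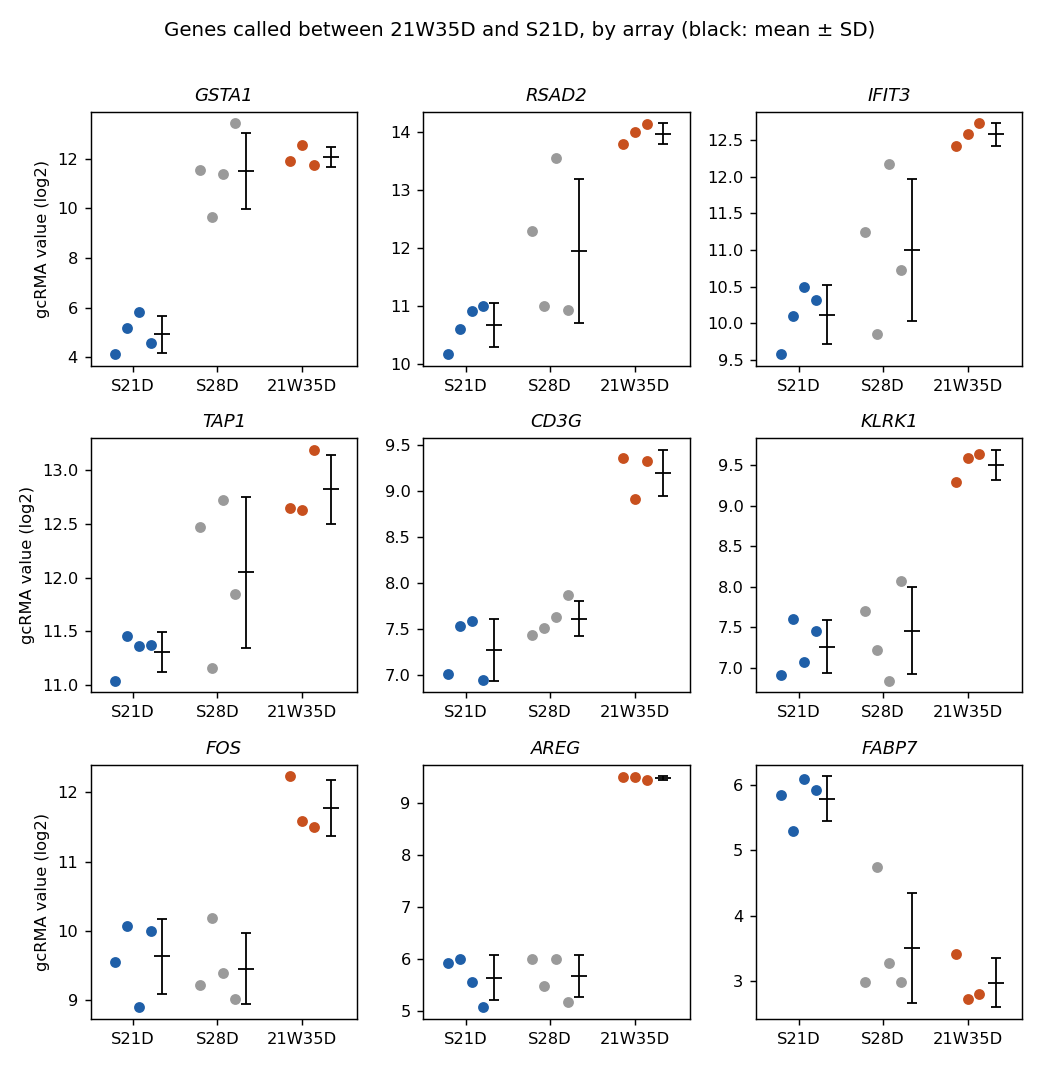
Deposited log2 value of each array for 9 genes that passed, in S21D (n = 4), S28D (n = 4) and 21W35D (n = 3) piglets, with the mean and SD in black. CD3G, KLRK1, FOS and AREG were lower in every S28D than in every 21W35D array, while GSTA1 was already high and FABP7 already lower in S28D piglets.

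T cell and cytotoxic lymphocyte genes had the highest median of all lists, 1.67 over 19 measured members. CD3G and KLRK1 rose (0.399% over all named genes), none fell, and 8 members were higher without overlap (7.7% over all named genes). With the replicate block 4 members passed, and with dim probe sets left out 7. With only the 2 groups in the fit none passed. CD3G, the gamma chain of the T cell receptor complex, measured 7.02, 7.54, 7.58 and 6.95 in S21D piglets and 9.36, 8.91 and 9.32 in 21W35D piglets. It rose by 1.92 (SE 0.18, adjusted p = 0.000141), or 3.80-fold. KLRK1 (NKG2D), an activating receptor of natural killer and CD8 T cells, was 6.91, 7.60, 7.07 and 7.46 in S21D and 9.29, 9.59 and 9.63 in 21W35D piglets. It rose by 2.24 (SE 0.32, adjusted p = 0.0084). The chains CD3D, CD3E and the adhesion receptor CD2 gave 2.00 (adjusted p = 0.073), 2.05 (adjusted p = 0.0659) and 2.50 (adjusted p = 0.0752). The chemokine CCL5 gave 2.19 (adjusted p = 0.0504), and the granzyme GZMH, a protease of cytotoxic granules, 2.69 (adjusted p = 0.0817). These 5 did not overlap between the groups and their 21W35D arrays were all higher.

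Replicate 2 of 21W35D differed from the other arrays of its group for a part of this list. CD8A, which marks cytotoxic T cells, was 7.48 to 8.28 in S21D piglets and 10.38, 7.95 and 10.09 in 21W35D piglets, and CD8B 2.47 to 3.08 and 6.77, 3.34 and 6.48. In both, replicate 2 was close to the S21D range. LAT, an adaptor of the T cell receptor, was 4.01 to 4.69 and 6.59, 3.91 and 6.56. Without replicate 2 the fit gave 6 rises in the list (KLRK1, LAT, CD27, CD8A, CD8B and CD3G) and a median of 2.07. CD8B then rose by 3.85 (adjusted p = 0.0302) and CD8A by 2.44 (adjusted p = 0.0347), and CCR9, the receptor that brings T cells to the small intestine, by 1.88 (adjusted p = 0.0248), against 1.45 with all arrays (adjusted p = 0.118). CD4, PRF1, CTLA4 and CD27 lay within 0.15 of the floor in all 7 arrays, so that helper T cells were not measured through CD4, and the rise of CD27 above is a difference near the floor. CD247, the zeta chain, gave -1.29 (adjusted p = 0.599), with 5.25 in replicate 2 against 8.65 and 8.82 in the other 2 arrays.

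Outside the list, 4 further rises are given here with what is known of each gene, with no test of a shared theme. PRKCH, a protein kinase C that acts in T cells and in epithelium, measured 6.61 to 7.26 in S21D and 8.79, 8.52 and 8.89 in 21W35D piglets and rose by 1.88 (SE 0.17, adjusted p = 0.000141). FCGR3A (CD16), the antibody receptor of natural killer cells and macrophages, rose by 1.78 (SE 0.31, adjusted p = 0.033). GIMAP5, a GTPase needed for lymphocyte survival, rose by 1.29 (adjusted p = 0.0136), and JAML, a leukocyte adhesion molecule, by 0.68 (adjusted p = 0.033). GIMAP5 and JAML fall outside the naming rule and were chosen after their values were seen. In the blocked fit the adjusted p was 0.0726 for FCGR3A and 0.0705 for JAML. Of the 14 myeloid genes none passed. C1QA, a complement subunit made by macrophages, gave 0.65 (adjusted p = 0.521), and CD163, a macrophage scavenger receptor, was 5.30 to 6.33 in S21D and 7.99, 4.19 and 8.39 in 21W35D piglets (adjusted p = 0.698). Replicate 2 again set these values: without it CD163 rose by 2.29 (adjusted p = 0.0468), as the only one of the 14, and C1QA gave 1.09 (adjusted p = 0.448).

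The T cell list score was -0.428, -0.465, 0.04 and 0.546 in S28D piglets, against -0.726 to -0.092 in S21D and 1.504, 0.36 and 1.573 in 21W35D piglets. Replicate 4 of S28D thus lay above replicate 2 of 21W35D. Of the called genes, CD3G measured 7.44 to 7.87 in the 4 S28D arrays, and 21W35D piglets were 1.58 above them (SE 0.18, adjusted p = 0.00166). For KLRK1 that difference was 2.05 (adjusted p = 0.0217) and for PRKCH 1.72 (adjusted p = 0.000547). For FCGR3A it was 1.147 and did not pass (adjusted p = 0.156). It was 1.085 for GIMAP5 (adjusted p = 0.0478) and 0.789 for JAML (adjusted p = 0.0176). Between S21D and S28D piglets, CD3G differed by 0.34, KLRK1 by 0.20 and PRKCH by 0.16, each with an adjusted p of 1.0. Against the arrays labelled S35D, 21W35D arrays were 1.21 higher for CD3G (adjusted p = 0.0359) and 1.43 higher for KLRK1 (adjusted p = 0.28). In that comparison PRKCH gave 0.875 (adjusted p = 0.207) and FCGR3A 0.183, and neither passed.

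Genes of growth factor and immediate early response formed another group of rises. Of 19 measured members 4 rose (0.399% over all named genes) and none fell, with a list median of 0.24. AREG (amphiregulin), a ligand of the EGF receptor, measured 5.93, 6.003, 5.56 and 5.07 in S21D piglets and 9.495, 9.499 and 9.441 in 21W35D piglets. It rose by 3.84 (SE 0.67, adjusted p = 0.033). The receptor itself, EGFR, gave 0.02 (adjusted p = 1.0), and the ligands HBEGF and TGFA were within 0.01 of the floor. FOS, a subunit of the AP-1 transcription factor, measured 9.55, 10.07, 8.89 and 9.99 in S21D and 12.23, 11.58 and 11.51 in 21W35D piglets and rose by 2.14 (SE 0.33, adjusted p = 0.0136). Its partner JUN gave 1.10 (adjusted p = 0.195), without overlap. DUSP6, a phosphatase that switches off ERK and is itself raised by ERK, rose by 1.47 (SE 0.23, adjusted p = 0.0159) and by 1.87 on its second probe set. ZFP36 (tristetraprolin), which destabilises cytokine mRNA, rose by 0.94 (SE 0.16, adjusted p = 0.0269). CDKN1A (p21), an inhibitor of the cell cycle, and NFIL3, a transcription factor of innate lymphoid cell development, rose by 0.95 (adjusted p = 0.0498) and 1.14 (adjusted p = 0.0386). These 2 were chosen after their values were seen. EGR1, DUSP1 and ATF3, other immediate early genes, gave 0.38, 0.24 and 0.47, and none passed (adjusted p = 0.953, 0.58 and 0.724). EGR1 was 9.56 to 9.81 in S21D and 10.86, 8.57 and 10.82 in 21W35D piglets, and without replicate 2 the difference was 1.13 (adjusted p = 0.285).

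Against S28D piglets, 21W35D piglets were 2.32 higher for FOS (adjusted p = 0.0101), 3.81 higher for AREG (adjusted p = 0.0475) and 1.67 higher for DUSP6 (adjusted p = 0.00896). ZFP36 was 0.755 higher and did not pass (adjusted p = 0.0817). CDKN1A was 1.145 higher (adjusted p = 0.0309), and NFIL3, at 0.916, did not pass (adjusted p = 0.109). S28D and S21D piglets differed by 0.03 for AREG and by -0.18 for FOS (each adjusted p = 1.0). In the arrays labelled S35D, AREG averaged 9.67 ± 1.52 (SD, n = 3) and FOS 11.32 ± 0.21. With the replicate block none of the 4 passed, with an adjusted p of 0.127 for AREG, 0.0649 for FOS and DUSP6 and 0.0734 for ZFP36. It was 0.0742 for CDKN1A and 0.137 for NFIL3. Without replicate 2 of 21W35D, FOS and DUSP6 passed.

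The remaining rises under the naming rule were those of TFF2, PPA1, SPATS2L, LOC100522818 and LOC100621559. TFF2, a trefoil peptide of mucus-secreting glands, measured 7.12, 7.65, 7.13 and 7.95 in S21D and 10.39, 10.35 and 11.51 in 21W35D piglets and rose by 3.29 (SE 0.57, adjusted p = 0.033). The goblet cell peptide TFF3, at 12.55 to 13.29 and 13.10 to 13.50, gave 0.35 (adjusted p = 0.777). PPA1, the cytosolic pyrophosphatase, rose by 1.60 (SE 0.30, adjusted p = 0.0386), SPATS2L by 1.59 (SE 0.29, adjusted p = 0.0359), LOC100522818 by 2.51 (adjusted p = 0.0372) and LOC100621559 by 1.77 (adjusted p = 0.0386). A second SPATS2L probe set gave 1.58 and did not pass (adjusted p = 0.144). LOC100621559 has 11 probe sets, of which 1 passed, 5 lay within 0.01 of 0 and the other 5 gave 1.56 to 1.90. None of these 5 genes passed with the replicate block, which gave an adjusted p of 0.0726 for TFF2, 0.116 for PPA1, 0.127 for SPATS2L, 0.0702 for LOC100522818 and 0.12 for LOC100621559. None passed against S28D piglets either. There the difference was 2.479 for TFF2 (adjusted p = 0.111), 1.024 for PPA1 (adjusted p = 0.162) and 1.524 for SPATS2L (adjusted p = 0.0568). It was 2.46 for LOC100522818 (adjusted p = 0.0548) and 1.198 for LOC100621559 (adjusted p = 0.155). PIGR, which takes up IgA at the base of enterocytes and releases it into the lumen, measured 10.10, 10.20, 9.20 and 9.74 in S21D and 11.51, 12.55 and 11.87 in 21W35D piglets, a difference of 2.17 that did not pass (SE 0.45, adjusted p = 0.0668). JCHAIN, which joins IgA into dimers, gave 0.43 (adjusted p = 0.695). The 6 plasma cell and IgA transport genes had a median of 0.39, and none passed. LYVE1, a marker of lymphatic vessels, was 5.80 to 6.49 and 7.46 to 7.57, a difference of 1.44 (SE 0.29, adjusted p = 0.0524).

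Falls were few. FABP7, the brain-type fatty acid-binding protein, measured 5.84, 5.30, 6.09 and 5.92 in S21D piglets and 3.42, 2.73 and 2.81 in 21W35D piglets, which is close to the floor. It fell by 2.81 (SE 0.36, adjusted p = 0.00351). As with GSTA1, S21D piglets stood apart from both neighbouring ages: the mean was 2.34 ± 0.04 (SD, n = 3) in S14D and 3.51 ± 0.84 (n = 4) in S28D piglets. S28D differed from S21D by -2.28 (adjusted p = 0.0776), and 21W35D differed from S28D by -0.52 (adjusted p = 0.511). UTP15, a factor of ribosome assembly, was 6.36 to 6.68 in S21D and 5.35, 4.79 and 4.67 in 21W35D piglets and fell by 1.60 (SE 0.28, adjusted p = 0.035). Its S28D mean was 5.05 ± 0.48. MARCH7, a ubiquitin ligase, fell by 1.32 on 1 probe set (adjusted p = 0.0366) and gave -0.27 on its brighter one (adjusted p = 0.472). MCUR1, a regulator of mitochondrial calcium uptake, fell by 0.59 (adjusted p = 0.0404). It was chosen after its value was seen, to complete the 4 named falls. Blocked on the replicate number, FABP7 had an adjusted p of 0.0238, UTP15 0.0726, MARCH7 0.11 and MCUR1 0.137.

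B cell and follicle genes were lower on average, but no member passed and 1 array decided the size. All 10 measured B cell genes were below 0, with a median of -1.61, and 6 were lower without overlap (8.71% over all named genes). CD79B, a chain of the B cell receptor, was 11.79, 11.30, 12.07 and 11.87 in S21D piglets and 11.20, 2.93 and 11.01 in 21W35D piglets (adjusted p = 0.503). CXCL13, the chemokine that gathers B cells into follicles, was 13.78 to 14.39 in S21D piglets and 13.85, 3.28 and 13.65 in 21W35D piglets (difference -3.82, SE 1.86, adjusted p = 0.46). In both, replicates 1 and 3 lay close to the lowest S21D array and replicate 2 was near the floor. Without replicate 2 the B cell median was -0.57, CXCL13 gave -0.33 (adjusted p = 1.0) and CD79B -0.65 (adjusted p = 1.0).

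The adhesion molecules followed the same array. ICAM1 measured 9.79, 9.45, 9.79 and 9.74 in S21D and 9.28, 6.35 and 8.94 in 21W35D piglets (-1.50, SE 0.53, adjusted p = 0.305), and without replicate 2 the difference was -0.58 (adjusted p = 0.966). VCAM1, a ligand for lymphocyte integrins, was 13.36 to 13.98 and 13.38, 10.92 and 13.16 (-1.17, adjusted p = 0.454), and VAV1, an activator of Rac in lymphocytes, 10.84 to 11.20 and 10.86, 8.23 and 10.82 (-1.01, adjusted p = 0.596). Of 23 follicle and homing genes none passed, and the median was -0.29, or 0.00 without replicate 2. CXCL9, a chemokine induced by interferon gamma, was 8.52 to 9.70 in S21D and 11.22, 10.13 and 12.10 in 21W35D piglets (2.02, adjusted p = 0.441). For MHC class II no member of 11 passed either. SLA-DRA was 12.18 to 13.07 and 13.03, 11.58 and 13.13, and the list median of -0.30 became 0.20 without replicate 2. SLA-DOA, a chain of the class II modulator that B cells carry, was lower in all 3 21W35D arrays, at 3.43, 2.08 and 2.96 against 4.12 to 6.26, a difference of -2.09 (SE 0.76, adjusted p = 0.323) and of -1.72 without replicate 2 (adjusted p = 0.88). ACTB, the reference of the real-time PCR, was 14.02 to 14.54 and 14.21 to 14.24 (-0.08, adjusted p = 1.0). Of the 9 measured reference genes 8 were below 0, 2 were lower without overlap (8.71% over all named genes) and none passed. Their median was -0.231, or -0.109 without replicate 2.

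**Figure D4:**
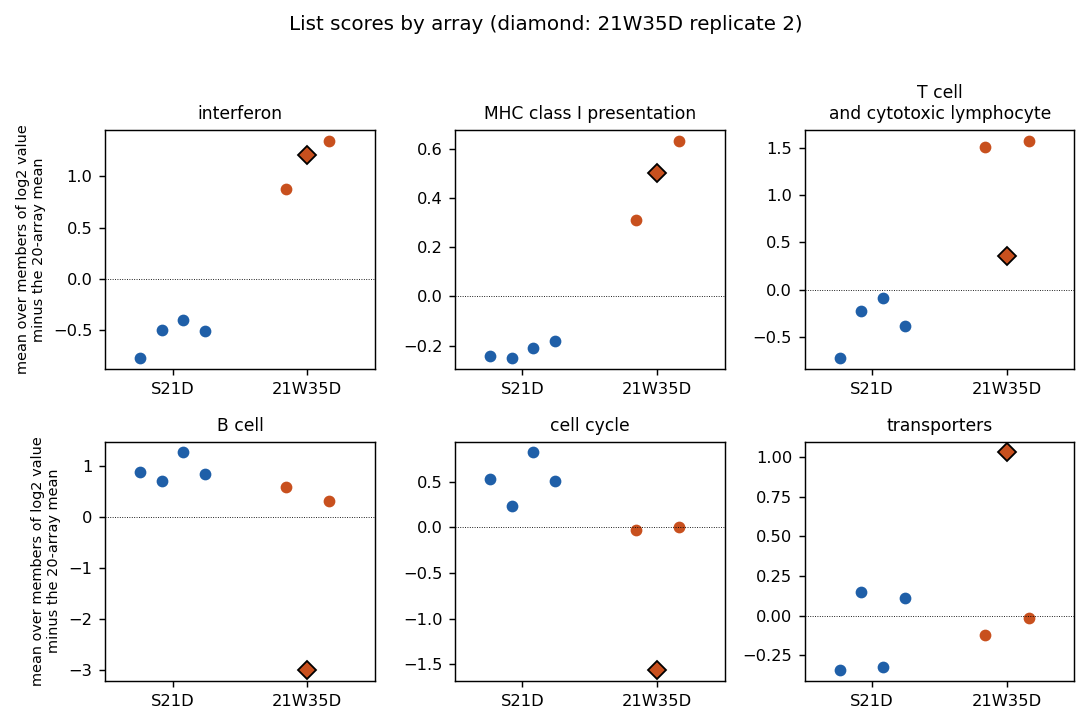
Mean over the members of a list of the log2 value centred on all 20 arrays, for each S21D and 21W35D array. Replicate 2 of 21W35D (diamond) lies with its group for interferon and MHC class I genes, at -2.995 for B cell and -1.56 for cell cycle genes, where the other 2 arrays are between -0.03 and 0.59, and highest for transporters.

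All 30 measured cell cycle genes were below 0 and 22 were lower without overlap (8.71% over all named genes), with a median of -1.03, and again none passed. MCM2, part of the helicase that opens DNA for replication, was 10.04, 9.62, 10.28 and 10.10 in S21D and 9.15, 7.14 and 9.31 in 21W35D piglets (-1.48, SE 0.57, adjusted p = 0.356). PCNA, the sliding clamp of the replication machinery, was 13.04 to 13.41 and 12.64, 10.96 and 12.69 (-1.10, adjusted p = 0.433). TOP2A, the topoisomerase of dividing cells, was 12.88 to 13.31 and 12.65, 11.27 and 12.62 (-0.89, adjusted p = 0.492). Replicates 1 and 3 were thus just below the S21D arrays and replicate 2 far below them. Without replicate 2 the median was -0.53 and PCNA gave -0.53 (adjusted p = 1.0). In replicate 2 low B cell and low cell cycle values came with a transporter score of 1.03, against -0.12 and -0.015 in the other 2 arrays, and their part in these differences was not tested.

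Enterocyte genes were dominated by the same array in the other direction. SLC15A1, the peptide transporter of the brush border, was 8.38 to 9.40 in S21D and 9.86, 11.998 and 9.98 in 21W35D piglets (1.70, SE 0.55, adjusted p = 0.263). SLC2A5, the fructose transporter, was 6.45 to 7.28 and 7.50, 10.71 and 7.58 (1.63, adjusted p = 0.458), and APOA4, an apolipoprotein of chylomicrons, 6.53 to 8.26 and 4.77, 12.28 and 9.98 (1.88, adjusted p = 0.695). SLC5A1, the sodium-glucose transporter, gave 0.42 (adjusted p = 0.552), and DPP4 and ANPEP, peptidases of the brush border, 0.68 and 0.32 (adjusted p = 0.474 and 0.768). None of 30 transporters, 30 fat uptake and export genes, 11 digestion genes or 15 epithelial genes passed. Their medians were 0.25, 0.18, 0.14 and 0.36, and 0.01, -0.08, 0.00 and 0.20 without replicate 2. CPT1A, which brings long-chain fatty acids into mitochondria, was lower in all 3 arrays, at 9.54, 9.61 and 9.92 against 10.60 to 10.96 (-1.03, SE 0.25, adjusted p = 0.116).

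Cholesterol synthesis enzymes had a median of 0.65 over 17 genes, of which none passed and 4 were higher without overlap (7.7% over all named genes). INSIG1, a sterol-controlled brake on this pathway, was 10.60 to 12.03 in S21D and 13.13, 12.65 and 12.92 in 21W35D piglets (1.48, SE 0.43, adjusted p = 0.197), and HMGCS1, an early enzyme, 11.13 to 11.91 and 12.68, 11.13 and 12.69 (0.74, adjusted p = 0.457). Of 12 unfolded protein response genes 7 were higher without overlap (7.7% over all named genes) and none passed. The chaperone HSPA5 gave 0.36 (adjusted p = 0.288). Lists of other tissue layers were near 0, with medians of -0.08 for 12 smooth muscle, 0.02 for 16 stroma and vessel and -0.21 for 5 erythrocyte genes, and no member of them passed.

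Of the 63 rises, 29 probe sets carried no gene symbol in the annotation used and 1 carried several, and of the 8 falls 4 carried none. They are counted here and not interpreted. The largest, whose identifier carries the cluster number of the second GSTA1 probe set, was 4.22 ± 0.75 (SD, n = 4) in S21D and 11.71 ± 0.58 (n = 3) in 21W35D piglets, a rise of 7.49 (adjusted p = 0.0377). The largest fall among them was a difference of -1.80 (adjusted p = 0.0269).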

How the data were processed

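Scraped mucosa of the distal ileum was profiled on Affymetrix porcine 3′ expression arrays. The authors used gcRMA (R, Bioconductor) for background correction, normalization and summary, and the deposited values are log2 values per probe set. GCOS 1.2 and GCRMA are the tools listed in the submitters' processing notes. Low probe sets are compressed towards the floor of 2.084, and raw intensities were not used here. After 124 controls were left out, 23999 of 24123 probe sets were tested. Symbols came from the platform annotation, in which 10069 probe sets have 1 symbol (9961 in the Sscrofa11.1 gene table), 198 several and 13732 none.

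limma 3.58.1 (lmFit and eBayes, R 4.3.3) was fitted with a mean for each of the 6 groups (20 arrays), and Benjamini-Hochberg adjustment was over all probe sets. Probe sets were called at an adjusted p under 0.05 and 2-fold, and single genes and list members on the adjusted p alone. The 32 lists, of which 523 of 829 members were measured on their brightest probe set with 1 symbol, are described by counts and medians with no set test. A list's score averages its members, each centred on all arrays, leaving out those that stay under 4 log2 units. The members, lists and this comparison were chosen with earlier results of these data known. Named genes were the real-time PCR genes of the study except IFI6, which is not given here. They also included the 20 largest rises and falls that passed both thresholds without overlap and reached 4 log2 units. Up to 8 passing members of each list and up to 4 defining members of a list were added. Further list members given with values were chosen after these were seen.

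The 3 pairs of S21D and 21W35D arrays with the same replicate number were checked. Their deviations from the group means correlated at 0.113 to 0.41, so that the block is given beside results it changes. Pairs of these arrays with different numbers ranged from -0.447 to 0.403, which overlaps that range. Over all groups only 20 of 46 pairs with the same number exceeded 0.1, and the labels do not say what a number shares. Neither litter nor scan date was used as a batch, since no source used here ties them to arrays. Each array is a separate piglet, and 3 and 4 arrays limit the precision. On simulated data of this comparison (23999 probe sets, 100 changed 2-fold and 100 changed 4-fold), 47% and 86% were found, with 8 false calls (5.7% of calls). The simulated spread was normal and equal in all groups, and changes were placed only in probe sets with a mean over 5. It thus does not cover the wider spread of 21W35D (median SD 0.327 against 0.195 in S21D), its replicate 2 or probe sets near the floor. Alternatives were a dim filter (4 log2 units in at least 3 arrays), no fold minimum, only the 2 groups in the fit, S35D and 21W28D left out, intensity trend with robust variance, median centring, repeated quantile normalization, the replicate block, the methods' t-test, 1 probe set per gene and each array left out. Python 3.11.15 and matplotlib 3.10.9 drew the figures.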

Additional observations from a re-analysis of the deposited data

Results flagged for a closer look

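In groups of 4 arrays, a single array stood further from the rest, by Dixon's ratio of gap to range, than 5% of groups would by chance in 9 of 156 tests, or about as often as chance gives. Of named genes, LOC100621559 was 10.33 in replicate 1 of S28D (others 10.99 to 11.12), FABP7 was 4.75 in replicate 2 of S28D (others 3.00 to 3.28), and ICAM1 was 9.45 in replicate 2 of S21D (others 9.74 to 9.79). Of list scores, replicate 3 of S21D was high for MHC class II presentation, at 0.866 (others 0.33 to 0.348), and low for mucosal defence, at -0.304 (others 0.17 to 0.188). Replicate 1 of S21D was high for erythrocyte genes, at 0.363 (others -0.254 to -0.15). Replicate 1 of S28D was low for B cell genes, at 0.426 (others 1.118 to 1.206), for cell cycle genes, at 0.221 (others 0.754 to 0.848), and for reference genes, at 0.045 (others 0.112 to 0.124). The 21W35D group has 3 arrays and was not tested in this way, so the 156 tests do not cover its replicate 2.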

How the results depend on the processing

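The 54 calls became 107 with dim probe sets left out (96 rises and 11 falls), 11 with only the 2 groups in the fit, 27 without S35D and 21W28D in the fit, 21 with the replicate block, and 456 and 0 with the methods' t-test before and after Benjamini-Hochberg. Leaving out 1 array gave 14 to 57: 16, 19, 14 and 20 without S21D replicates 1 to 4, and 19 without replicate 3 of 21W35D. Of the 37 named probe sets, all 36 that the dim filter kept passed with it, 34 passed with median centring, 34 with repeated quantile normalization, 35 with intensity trend, 10 without S35D and 21W28D, 8 with the replicate block and 5 with only the 2 groups. These 5 were probe sets of GSTA1, AREG, RSAD2, IFIT1 and NT5C3A. The early response median was 0.3821 with dim probe sets left out, and 0.1726 to 0.2972 with 1 array left out. ACTB ranged from -0.1709 to 0.00442 without 1 array, above 0 without replicate 1 of S21D. The medians of the interferon, MHC class I, T cell, B cell and cell cycle lists kept their sign under all alternatives.

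For 21W35D against S28D, the 26 calls became 68 (dim filter), 0 (only these groups), 17 (without S35D and 21W28D), 14 (replicate block), 463 and 0 (methods' t-test), and 14 to 49 without 1 array. For S28D against S21D, the 1 call became 2 (dim filter, without S35D and 21W28D, median centring, 1 probe set per gene), 0 (only these groups), 66 and 0 (methods' t-test), and 1 to 3 without 1 array. For 21W35D against the arrays labelled S35D, the 5 calls became 11 (no fold minimum), 0 (only these groups), 3 (replicate block), 80 and 0 (methods' t-test), 1 (1 probe set per gene), 4 to 26 without 1 array, and 16 with the labels S35D and 21W28D exchanged. The exchange and the arrays left out of these 3 comparisons were chosen after seeing the data. The cause of these changes was not tested. Signal near the floor limits CD4, PRF1, IFNB1 and other dim genes.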

Other observations

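A few genes of the lists split the 4 S21D arrays into replicates 1 and 2 against 3 and 4. They were chosen after their values were seen and get no test. APOC2, an activator of lipoprotein lipase, was 3.09 and 2.08 in replicates 1 and 2 and 10.46 and 10.85 in replicates 3 and 4, and 2.09, 4.46 and 2.09 in 21W35D piglets. CBR1, a carbonyl reductase, was 4.77 and 2.08 against 9.23 and 8.22, and 2.08 in all 21W35D arrays. SLPI, a secreted protease inhibitor, was 10.11 and 9.94 against 12.91 and 13.25, and BPI, a protein that binds bacterial endotoxin, ran the other way, at 8.196 and 8.207 against 4.57 and 4.74. The differences between the groups for APOC2 (-3.75, adjusted p = 0.427) and CBR1 (-3.99, adjusted p = 0.215) rest on replicates 3 and 4 of S21D.

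TMPRSS15 (enteropeptidase), which activates trypsinogen, was listed at 2.08 in 6 of the 7 arrays and at 7.70 in replicate 2 of 21W35D. CYP2C42, an oxidase of drugs and lipids, was 5.98 to 6.75 in S21D and 7.10, 10.51 and 7.20 in 21W35D piglets (1.84, adjusted p = 0.436). IL15, a cytokine that sustains intraepithelial lymphocytes, was 5.29 to 5.91 and 5.99, 8.12 and 6.78 (1.28, SE 0.43, adjusted p = 0.276).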
